A study of Mus musculus with 12 samples.

Results

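The genes described here are 31 genes of the interstitial matrix and of the myofibroblasts that make it, chosen by name from the 55487 genes of the deposited table. They comprise 5 fibrillar collagen chains, 7 other collagen chains, 9 matrix glycoproteins and versican, 3 crosslinking enzymes, 3 small leucine-rich proteoglycans and 4 genes of the myofibroblast and mesenchymal cell. All 31 were found once in the table, and all 31 passed the filter on low counts, as did 17890 genes in all. Their rounded counts per library ran from 110, in the library lowest for Postn, to 16401, in the library highest for Bgn.

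Whole kidneys of 30-week-old male mice with X-linked Alport syndrome on the B6 background were profiled by messenger RNA sequencing, in 6 libraries per diet: a control diet, or one with 500 ppm of fisetin, a plant flavonol. The design gives both groups the syndrome, and the sample titles name Col4a5, the X-linked type IV collagen chain gene. The genotype field reads HET although the mice are described as males, and no allele status is used. Each of 2 batches held 3 libraries of each diet. No healthy kidney was analysed here, so every value compares kidneys that the design describes as diseased. Whether the libraries stem from separate animals is not given in the labels, and p-values therefore measure only the spread between these libraries, which may be technical. Total counts per library were 16310214 to 24451821, and in 66 pairs of libraries counts differed by a mean square at least 6.996 times as large as counting noise gives, which leaves no pair that could be 1 library deposited again. Defining genes of the tubule, podocyte and endothelium (Slc34a1, Nphs1 and Pecam1) were counted in all 12 libraries. In whole kidney RNA, fewer cells of a type and less RNA per cell cannot be told apart.

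In Alport syndrome the type IV collagen network of the glomerular basement membrane is defective, and the kidney scars as it fails. Scarring is carried out by fibroblasts and pericytes, which carry the PDGF receptors and, when activated, turn into contractile myofibroblasts that contain smooth muscle actin. These cells secrete fibrillar collagens, fibronectin and the glycoproteins and proteoglycans that organise the fibres, and lysyl oxidases then crosslink the collagen. Transforming growth factor beta, acting through Smad proteins, is the best known signal for this program.

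Levels of different genes were compared on the deposited FPKM scale, which is per transcript length. The most abundant members were Bgn, the proteoglycan biglycan, with a median of 311.9 FPKM over the 12 libraries, and Sparc, a collagen-binding glycoprotein, with 239.4 FPKM. The interstitial collagen chains Col3a1, Col1a2 and Col1a1 followed with medians of 135.6, 134.4 and 104.4 FPKM, and fibronectin (Fn1) had 70.4 FPKM. The lowest were Lum, the proteoglycan lumican, at 4.58 FPKM, Postn, the matricellular protein periostin, at 3.5 FPKM and Vcan, the large proteoglycan versican, at 1.81 FPKM. Bgn ranged from 246.8 to 398.1 FPKM and Sparc from 163.2 to 281.3 FPKM, so their ranges overlapped, while neither range reached down to the 65.8 to 124.8 FPKM of Col1a1. Postn (1.96 to 5.73 FPKM) and Vcan (1.16 to 2.7 FPKM) overlapped at the foot of the order. The level of Tagln is uncertain: exons of Tagln, the smooth muscle protein transgelin, overlap those of Pcsk7 on the opposite strand, whose counts amounted to 44.2% of those of Tagln, and the sources used here do not say whether reads were counted by strand.

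The stretches just upstream of 4 start sites are shown because Col3a1 and Col5a1 belong to the fibrillar collagens that varied together, and Thbs2 and Vcan are the members with the smallest p-values by diet. Each gives the 250 bases before the RefSeq start site on GRCm38.p6, 5′ to 3′ in the gene's direction. Capitals mark the string TATAAA, known from core promoters, the string CCAAT, bound by nuclear factor Y, and the string CAGAC, recognised by Smad proteins. Each was searched on both strands, so a marked run may read as the reverse complement. No marked matches overlap.

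Col3a1 promoter, chr1:45311288-45311537, plus strand: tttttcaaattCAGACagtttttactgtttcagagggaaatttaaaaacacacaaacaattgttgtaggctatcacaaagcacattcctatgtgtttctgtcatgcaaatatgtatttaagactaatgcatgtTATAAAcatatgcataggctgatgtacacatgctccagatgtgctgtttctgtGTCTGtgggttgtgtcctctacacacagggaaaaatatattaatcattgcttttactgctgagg
Col5a1 promoter, chr2:27886175-27886424, plus strand: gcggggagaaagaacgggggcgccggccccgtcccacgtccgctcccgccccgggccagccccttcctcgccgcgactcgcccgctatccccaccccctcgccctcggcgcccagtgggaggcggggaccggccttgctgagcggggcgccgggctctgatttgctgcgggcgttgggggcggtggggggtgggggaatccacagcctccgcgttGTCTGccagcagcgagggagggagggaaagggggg
Thbs2 promoter, chr17:14694263-14694512, minus strand: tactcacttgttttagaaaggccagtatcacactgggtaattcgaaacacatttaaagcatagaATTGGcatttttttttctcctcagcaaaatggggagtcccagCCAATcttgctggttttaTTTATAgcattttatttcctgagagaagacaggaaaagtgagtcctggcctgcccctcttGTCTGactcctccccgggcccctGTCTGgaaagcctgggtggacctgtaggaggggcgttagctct
Vcan promoter, chr13:89742513-89742762, minus strand: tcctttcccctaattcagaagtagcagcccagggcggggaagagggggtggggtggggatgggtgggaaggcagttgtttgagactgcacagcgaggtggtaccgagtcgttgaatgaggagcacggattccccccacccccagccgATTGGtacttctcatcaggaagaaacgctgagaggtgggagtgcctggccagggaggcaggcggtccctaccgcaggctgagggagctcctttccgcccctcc

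The set of RefSeq starts used here covered 18 of the 31 members, Col1a1 not among them. With 3 of these members having more than 1 start, there were 21 such stretches. CAGAC was present in 13 of the 21, and in 42.2% of 32851 promoters of the same length, and it stood in the Col3a1, Col5a1 and Thbs2 stretches but not in the Vcan stretch. TATAAA was present in 5 of the 21 (of Col3a1, Postn, Thbs2 and Tnc), with a share of 12.4% over all promoters. The marked TATAAA matches began 117 bases before the start site in Col3a1 and 126 in Thbs2, where it reads as the reverse complement. CCAAT was present in 3 of the 21 (of Col1a2, Thbs2 and Vcan), with a share of 33.8%. Strings for AP-1 (TGACTCA, 1 of the 21, 4.46% of promoters) and TEAD factors (CATTCC, 3 of the 21, 12.6%) and the CArG box of serum response factor (0 of the 21, 1.47%) were also searched. These are letter matches only, and no factor binding was measured.

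The study compared fisetin with control diet, and its title names mTOR signalling as a target in this model. None of the 31 members passed an adjusted p of 0.05 in edgeR's quasi-likelihood test with batch as a term (Benjamini-Hochberg over all genes), where 0% of the 17890 genes tested passed. The member differences lay on both sides of 0, with 14 positive and 17 negative log2 fold changes, and 50.2% of all genes were positive. Scaled by total counts in place of TMM, 19 members and 61.1% of all genes were positive, since that scaling moved the median of all genes to 0.045. The median over members was -0.0075 on the log2 scale, beside 0.0008 over all genes, and single members ranged from -0.39 to 0.54. The median standard error was 0.12. No member had all fisetin libraries on 1 side of all control libraries, a pattern that 0.47% of all genes showed upwards and 0.425% downwards. Without adjustment, 3 members had an edgeR p under 0.05, beside 14.6% of all genes: Thbs2 and Col12a1 were higher (8.23% of all genes) and Vcan was lower (6.34%). DESeq2 called 0 members and 0.855% of all genes, and 3 members and 15.7% of genes had an unadjusted DESeq2 p under 0.05. With limma-voom and sample quality weights, which called 13.9% of all genes, Thbs2 and Col12a1 were called higher. In that fit 9 members and 34.8% of all genes had an unadjusted p under 0.05. Single libraries moved these counts. Without control 1, 22 members were positive, and the share of all genes was not computed for that fit. Without fisetin 3, 5 members had an unadjusted edgeR p under 0.05 (18.6% of all genes). Without fisetin 6, edgeR called 70 of all genes, none of them a member.

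**Figure D1:**
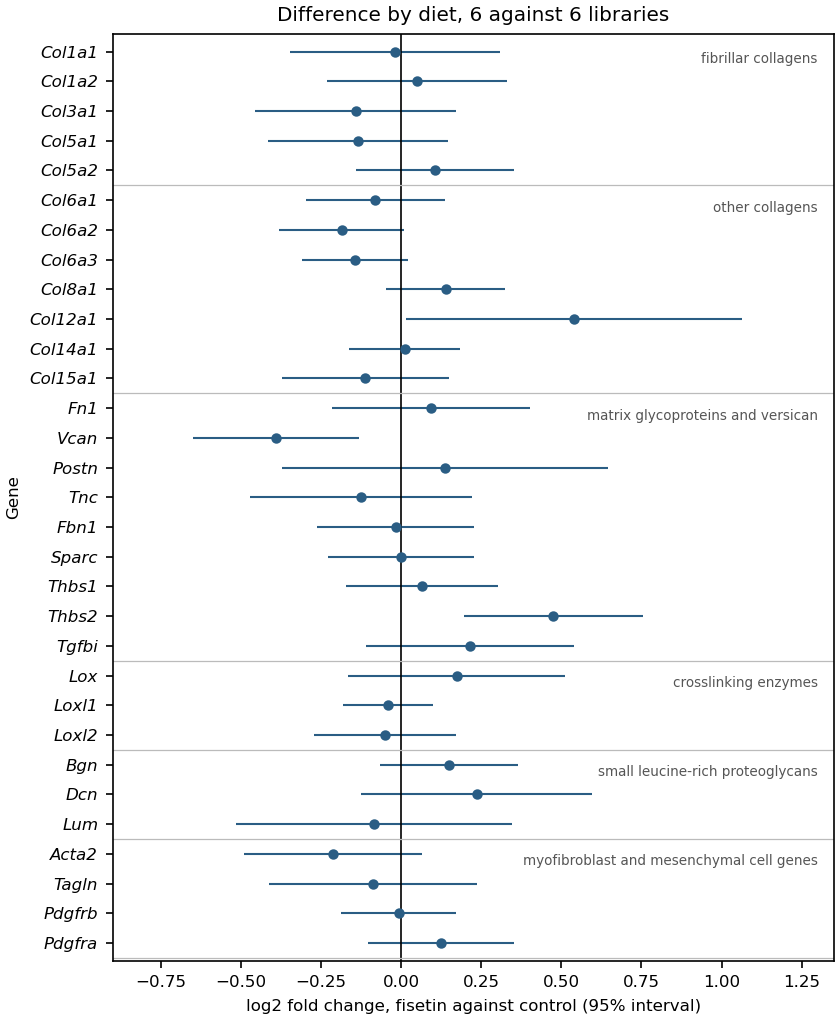
Log2 fold change of each of the 31 genes, fisetin against control (x axis), from edgeR with batch as a term; points are estimates from 6 against 6 libraries and lines are 95% intervals, grouped by role. The intervals of Thbs2, Col12a1 and Vcan leave out 0 before adjustment, and those of the other 28 genes hold it.

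Thbs2, the matricellular glycoprotein thrombospondin 2 (ENSMUSG00000023885, chr17:14665500-14694235, minus strand, GENCODE M21 on GRCm38), had the smallest p-value of the members. Its level on the control diet was 52.1 CPM at the lowest, 70.7 at the median and 90.3 at the highest (69.9 ± 12.6, SD, n = 6; CPM is the usual count rate scaled to library size, after TMM normalisation). With fisetin it was 74.0, 102.6 and 112.6 CPM (96.6 ± 15.9, SD, n = 6). All 6 fisetin libraries lay above the control mean and 4 lay above the highest control library, but the groups overlapped because control 1 stood above fisetin 3 and fisetin 6. The log2 fold change was 0.47 ± 0.13 (SE), or 1.39-fold with a 95% interval of 1.14 to 1.69. The edgeR p was 0.0031 before adjustment. It did not pass in edgeR (adjusted p = 0.267) or in DESeq2 (adjusted p = 0.051), and passed with limma-voom quality weights (adjusted p = 0.020). Within batch 1 the log2 fold change was 0.34 and within batch 2 it was 0.61.

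Its relative thrombospondin 1 (Thbs1), an activator of latent transforming growth factor beta, had a log2 fold change of 0.065 ± 0.11 (SE, edgeR adjusted p = 0.777). The control range was 208.7 to 275.8 CPM and the fisetin range 192.9 to 291.6 CPM, so the fisetin libraries spread over the whole control range. The FPKM ratio of Thbs2 to Thbs1 was 0.247 to 0.340 in the control libraries (median 0.297) and 0.337 to 0.429 in the fisetin libraries (median 0.394). Only control 1 and fisetin 3 overlapped in this ratio, which was chosen after values had been seen and was not tested.

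Vcan (ENSMUSG00000021614, chr13:89655312-89742509, minus strand), which forms large hydrated aggregates with hyaluronan, had the next smallest p-value. Control libraries held 13.2 CPM at the lowest, 15.0 at the median and 17.2 at the highest. Fisetin libraries held 9.34, 11.5 and 14.2 CPM. All 6 fisetin libraries lay below the control mean and 4 below the lowest control library, with fisetin 2 and fisetin 4 the exceptions. The log2 fold change was -0.39 ± 0.12 (SE), with a 95% interval of -0.65 to -0.13. The edgeR p was 0.0065 and the adjusted p 0.281, and the DESeq2 adjusted p was 0.099. The estimates were -0.42 in batch 1 and -0.35 in batch 2.

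Col12a1, a chain of the fibril-associated collagen XII (ENSMUSG00000032332, chr9:79598991-79718831, minus strand), had both the largest estimate and the largest spread among the members. Control libraries ran from 112.8 CPM through a median of 141.9 to 226.6, and fisetin libraries from 138.8 through 241.9 to 326.9 CPM. In Col12a1, 4 of 6 fisetin libraries lay above the highest control library, whereas fisetin 3 and fisetin 6 lay among the controls. The log2 fold change was 0.54 ± 0.24 (SE), with an edgeR p of 0.045 and an adjusted p of 0.334. With limma-voom quality weights the adjusted p was 0.027.

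**Figure D2:**
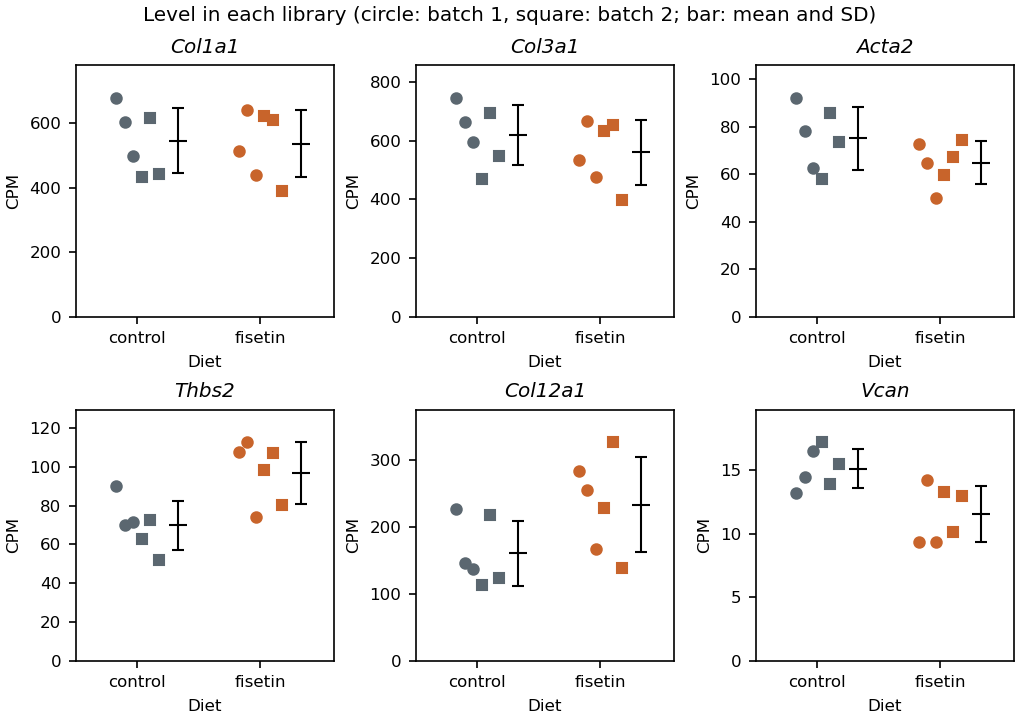
Level in CPM (y axis, from 0) in each library for 6 genes, by diet (x axis); circles are batch 1, squares batch 2, and bars give the mean and SD of 6 libraries. Fisetin libraries of Col1a1 spread from 389.8 to 639.4 CPM beside a control range of 431.9 to 677.4, while all 6 fisetin libraries of Vcan lay below the control mean.

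The fibrillar collagens did not differ by diet beyond the spread between libraries. Col1a1, the alpha 1 chain of type I collagen (ENSMUSG00000001506, chr11:94936224-94953042, plus strand), had control values of 431.9, 551.3 and 677.4 CPM (lowest, median, highest) and fisetin values of 389.8, 562.6 and 639.4. Its log2 fold change was -0.019 ± 0.15 (SE, edgeR adjusted p = 0.957), and the 95% interval of the fold ran from 0.79 to 1.24. With total counts it was 0.028, beside a median of 0.045 over all genes in that scaling. Col1a2, the alpha 2 chain of the same protein, had 442.3, 538.3 and 687.1 CPM in control libraries and 436.9, 583.8 and 652.2 in fisetin libraries, a log2 fold change of 0.05 ± 0.13 (edgeR adjusted p = 0.862). Col3a1, the type III chain that forms fine reticular fibres (ENSMUSG00000026043, chr1:45311538-45349706, plus strand), had 469.6, 630.7 and 745.7 CPM against 396.5, 582.6 and 666.3, a log2 fold change of -0.14 ± 0.14 (edgeR adjusted p = 0.624). In all 3 genes control 1 was the highest library and fisetin 6 the lowest. Col5a1 and Col5a2, chains of the type V collagen that starts fibrils, had log2 fold changes of -0.14 and 0.11, so 3 of the 5 chains had negative and 2 positive estimates.

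Ratios between chains varied less than the levels. The FPKM ratio of Col1a1 to Col1a2 was 0.703 to 0.806 in control and 0.686 to 0.767 in fisetin libraries. The ratio of Col3a1 to Col1a1 was 1.28 to 1.48 in control libraries (median 1.32) and 1.19 to 1.32 in fisetin libraries (median 1.22). The ratio of Col5a1 to Col5a2 was 1.63 to 1.91 in control libraries (median 1.75) and 1.30 to 1.64 in fisetin libraries (median 1.45). For the type V pair only fisetin 6 reached a control library, control 4, while for Col3a1 to Col1a1 3 control libraries lay at or below the highest fisetin library. These ratios were also chosen after values had been seen, and none was tested.

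Among the other collagens, 3 of 7 chains had positive and 4 negative estimates (median -0.08). The 3 chains of type VI collagen, a microfibril of the pericellular matrix, were all negative in edgeR: Col6a1 at -0.08, Col6a2 at -0.19 and Col6a3 at -0.14. With limma-voom quality weights they were at 0.032, -0.079 and -0.053 in the same order. For Col6a2 the control libraries held 59.1, 69.8 and 81.3 CPM and the fisetin libraries 52.6, 58.2 and 69.6, with 4 of 6 fisetin libraries below the lowest control library (log2 standard error 0.09, edgeR adjusted p = 0.352). Col6a3 had 125.0, 141.6 and 149.3 CPM against 113.9, 118.8 and 145.8, again with 4 fisetin libraries below every control library (edgeR adjusted p = 0.382). The estimates for Col6a1 and Col6a2 in batch 2 alone, 0.073 and -0.041, were nearer to 0 or on its other side than those in batch 1, -0.23 and -0.32, and the interaction of diet with batch did not pass for either gene (edgeR unadjusted p = 0.148 and 0.127). Col8a1, a short-chain collagen of vessels, was at 0.14 and Col15a1, of the basement membrane border, at -0.11, with 5 of 6 and 2 of 6 fisetin libraries above the control mean. Col14a1, another fibril-associated collagen, was at 0.011 ± 0.079 (SE), from 107.7 to 125.4 CPM in control and 96.3 to 140.5 CPM in fisetin libraries.

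Beside Thbs2 and Vcan, the matrix glycoproteins showed small estimates. Fn1, whose fibrils guide collagen assembly, had control values of 335.0, 432.7 and 521.2 CPM and fisetin values of 322.2, 499.4 and 535.2, a log2 fold change of 0.093 ± 0.14 (SE, edgeR adjusted p = 0.754). Postn had 5.96, 10.3 and 11.5 CPM against 5.73, 10.2 and 14.9, so fisetin held both its lowest and its highest library (log2 fold change 0.14 ± 0.23, SE). Tgfbi, a secreted protein induced by transforming growth factor beta, was at 0.21 ± 0.15 and Tnc, the injury-associated glycoprotein tenascin C, at -0.13 ± 0.16. Fbn1, the microfibril protein fibrillin 1, was at -0.018 and Sparc at -0.0006. In the whole group of 9, including Thbs2 and Vcan, 5 estimates were positive and 4 negative, with a median of 0.065.

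The crosslinking enzymes and small proteoglycans were likewise spread around 0. Lox, the founding lysyl oxidase, was at 0.17 ± 0.16 (SE), Loxl1 at -0.04 ± 0.065 and Loxl2 at -0.05 ± 0.10. Loxl1 had the smallest standard deviation within diet and batch, with control libraries between 56.3 and 71.9 CPM and fisetin libraries between 53.2 and 64.8 CPM. Bgn was at 0.15 ± 0.099 and Dcn, the collagen-binding proteoglycan decorin, at 0.24 ± 0.16. Lum was at -0.085 ± 0.20, with 6.61, 9.66 and 14.1 CPM in control and 6.67, 9.78 and 11.6 CPM in fisetin libraries.

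Of the 4 cell genes, Acta2, the smooth muscle actin of myofibroblasts and vessel walls (ENSMUSG00000035783, chr19:34241090-34255590, minus strand), had the estimate farthest from 0. Its control libraries held 57.9, 76.0 and 92.1 CPM and its fisetin libraries 49.8, 66.0 and 74.5. All 6 fisetin libraries lay below the control mean, yet only fisetin 3 lay below the lowest control library. The log2 fold change of -0.21 ± 0.13 (SE) did not pass in edgeR (adjusted p = 0.422). Tagln was at -0.088 ± 0.15, Pdgfrb, the pericyte PDGF receptor, at -0.0075 ± 0.082 and Pdgfra, the fibroblast PDGF receptor, at 0.13 ± 0.10. Pdgfrb ran from 137.5 to 168.8 CPM in control and from 128.9 to 167.1 CPM in fisetin libraries, and Pdgfra from 121.7 to 175.2 and from 129.9 to 183.9 CPM.

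The members also varied between libraries of the same diet. Over all 12 libraries, both diets together, the ratio of the highest to the lowest library was 1.31 to 2.90 over the 31 genes. Its median was 1.66, and it exceeded 1.5 for 23 of them, a share that was not computed over all genes. Within diet and batch, the median standard deviation of log2 CPM was 0.243 for the members and 0.186 for all genes tested. By this standard deviation the members' median percentile among all genes was 62.8. Col12a1 (0.49), Postn (0.48) and Lum (0.39) varied most, and Loxl1 (0.11), Col14a1 (0.13) and Col6a3 (0.14) least.

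The same libraries were high or low for most members. Control 1 was the highest library for 15 members and fisetin 5 for 10, whereas fisetin 6 was the lowest for 12, fisetin 3 for 10 and control 4 for 5. In control 1 and in fisetin 2, 30 of 31 members stood above their 12-library median, and in fisetin 3 none did. The same counts were not computed over all genes, so they do not show a pattern particular to the members. The limma-voom quality weights, fitted over all genes, were lowest for fisetin 6 (0.36), fisetin 5 (0.41) and control 1 (0.58). The mean of the members' standardised log2 CPM was 1.12 in control 1, 0.17 in control 2, -0.12 in control 3, -0.93 in control 4, 0.54 in control 5 and -0.78 in control 6. In the fisetin libraries 1 to 6 it was 0.28, 0.78, -1.06, 0.32, 0.70 and -1.0. Each diet therefore held both high and low libraries, and each batch did too.

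**Figure D3:**
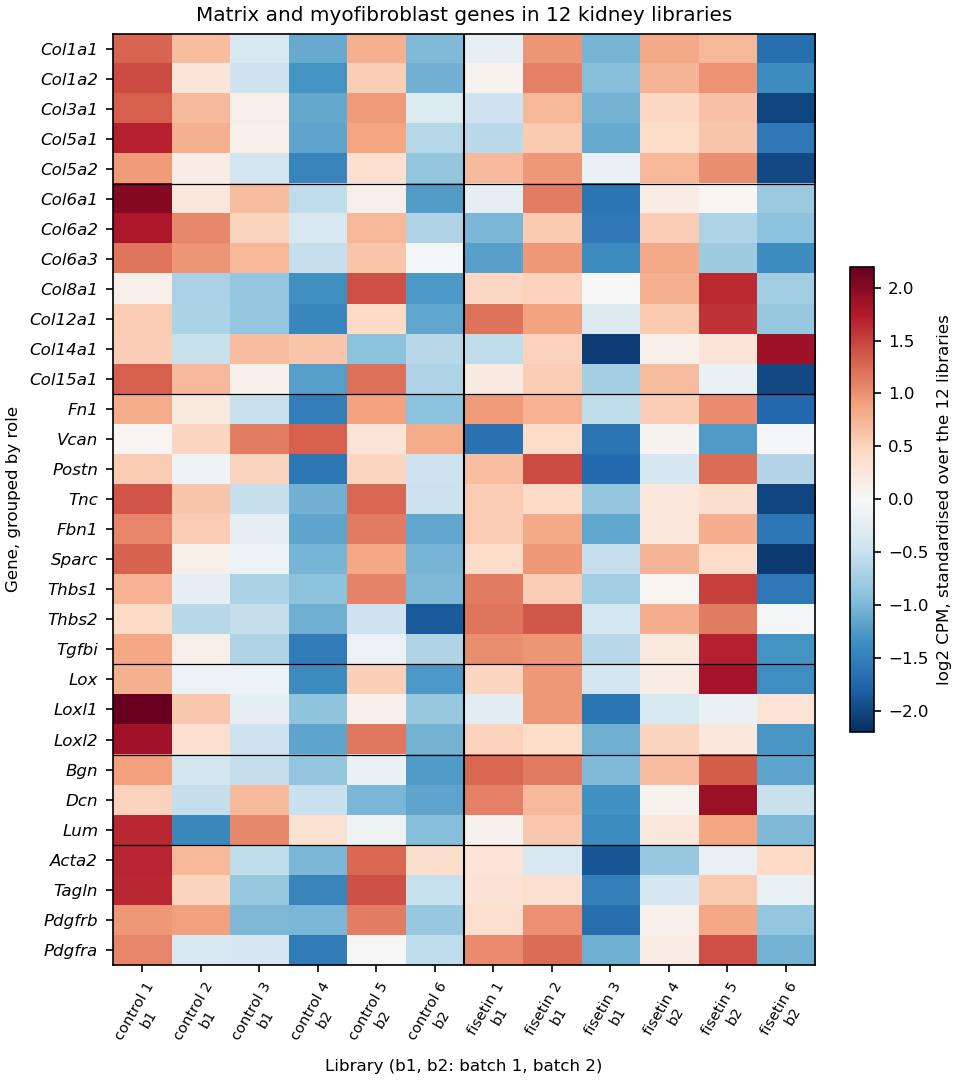
Log2 CPM of the 31 genes (rows, grouped by role), standardised over the 12 libraries (columns, control left and fisetin right, b1 and b2 for batch); red is above and blue below the gene's mean. Most rows share the red columns control 1, fisetin 2 and fisetin 5 and the blue columns control 4, fisetin 3 and fisetin 6, and Vcan and Col14a1 do not follow them.

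Marker genes of other cell types moved with these libraries. The summed level of 12 macrophage markers was 1146 CPM in control 1 and 1475 CPM in fisetin 5, and 629.4 CPM in control 4 and 574.7 CPM in fisetin 6. That of 14 proximal tubule markers was 14967 CPM in control 1 and 9157 CPM in fisetin 5, and 30100 CPM in control 4 and 27346 CPM in fisetin 6. Fisetin 3, the lowest library for the members, departed from that order, with 979.8 CPM of macrophage and 20857 CPM of proximal tubule markers. Adipocyte markers (8 of 10 tested) summed to 92.9 to 432.0 CPM in control and 100.1 to 563.5 CPM in fisetin libraries, and lymphocyte markers to 32.3 to 556.8 and 41.3 to 966.0 CPM. Urothelial markers summed to 28.9 to 57.2 and 12.1 to 58.7 CPM, and no marker was at 0 in every library. The part of these cell types in the members' levels was not tested.

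By diet, the 12 macrophage markers tested all had positive and the 14 proximal tubule markers all negative log2 fold changes, with medians of 0.40 and -0.41. The same held for 12 of 12 lymphocyte markers (positive, median 0.99), 8 of 8 adipocyte markers (positive, median 0.55) and 13 of 13 markers of other tubule segments (negative, median -0.38). Of all genes, 50.2% were positive. edgeR called 0 genes in these lists, and DESeq2 called 1, the urea transporter gene Slc14a2 of other tubule segments (DESeq2 adjusted p = 0.039). At an unadjusted edgeR p under 0.05 there were 3 macrophage, 3 lymphocyte and 0 adipocyte markers higher, beside 8.23% of all genes, and 3 proximal and 5 other tubule markers lower, beside 6.34%. The summed macrophage level was 629.4 to 1146 CPM in control and 574.7 to 1475 CPM in fisetin libraries, and the proximal tubule level 14967 to 30100 and 9157 to 27346 CPM. Markers of other tubule segments summed to 2907 to 5597 CPM in control and 2577 to 5015 CPM in fisetin libraries. The ranges of the diets overlapped for each of these lists, and their part in the values of Thbs2, Col12a1 and Vcan was not tested. Other marker lists held both signs. Endothelial markers had 2 positive and 8 negative estimates, podocyte markers 2 and 8, and urothelial markers 2 and 7. Capsule and mesothelial markers had 1 positive and 5 negative, mesangial markers 4 and 4, and tubular injury markers 8 and 5.

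Across the 12 libraries the members varied together. With diet and batch means removed, the median Pearson r of log2 CPM over their 465 pairs was 0.75, beside -0.002 for pairs of all genes tested, and 91.6% of the pairs were positive, beside 49.9%. An r above 0.8 was found for 40.6% of member pairs and 3.66% of all pairs. These are descriptions over libraries that share scaling and cell makeup. The 5 fibrillar collagens were the tightest group, with a median r of 0.97 and none of their 10 pairs under 0.94. The closest pairs were Col1a2 with Col5a1 (0.99), Col12a1 with Thbs1 (0.99), Fn1 with Tnc (0.99) and Col1a1 with Col1a2 (0.99).

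Over the 12 libraries together, Vcan and Col14a1 stood outside this pattern. Vcan had a median r of -0.16 with the other 30 and a negative r with 23 of them, and its closest partner was Col14a1 at 0.64. Col14a1 had a median r of -0.13 and a negative r with 16. Next came Acta2 (0.46), whose closest partner was Tagln (0.91), then Dcn (0.46) and Lum (0.49), which were each other's closest partner at 0.80. Fbn1 and Fn1 were the most typical members, each with a median r of 0.90. Thbs2 was closest to Bgn (0.94), and Col6a1, Col6a2 and Col6a3 had median values of 0.72, 0.65 and 0.53. The place of Vcan and Col14a1 depended on the libraries used. With no means removed, r of Col14a1 with Col1a1 was 0.68 within batch 1 and -0.58 within batch 2, each with 6 libraries. For Vcan these values were 0.50 and -0.51. Other members also differed between the batches, among them Acta2 (0.81 and 0.044), Loxl1 (0.96 and 0.20) and Col8a1 (0.19 and 0.91). Without control 4 and fisetin 6, r with Col1a1 was 0.58 for Col14a1 and 0.16 for Vcan.

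**Figure D4:**
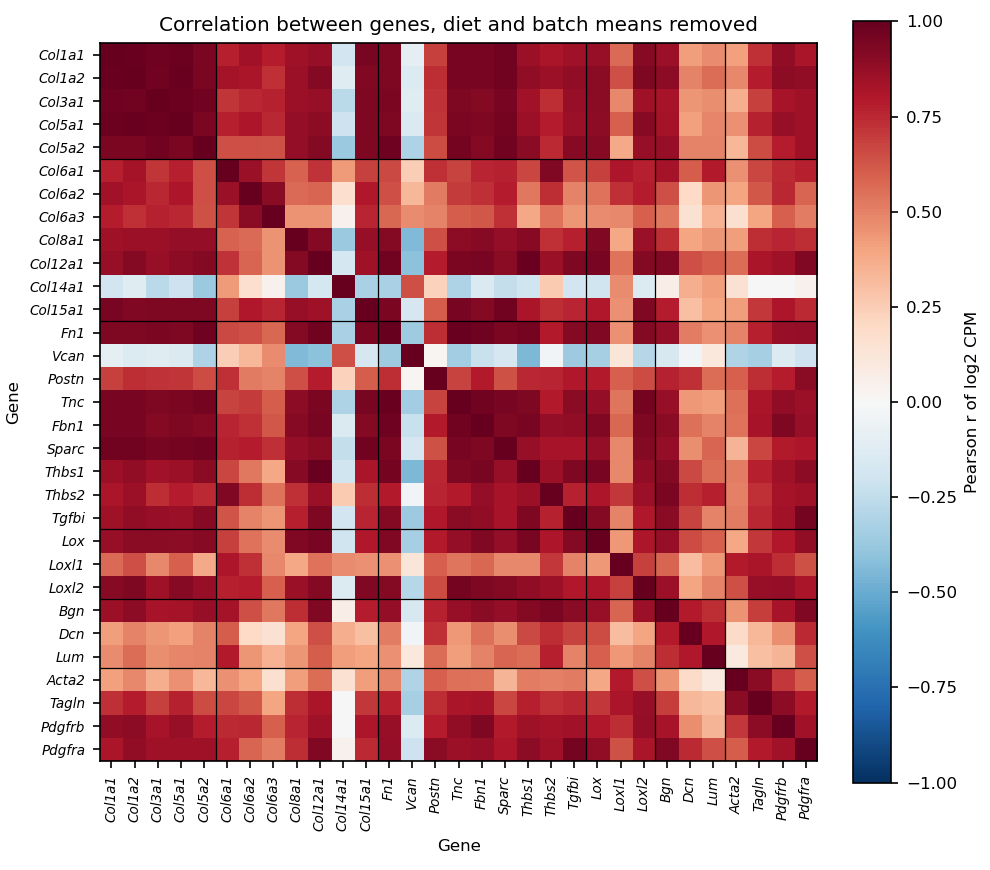
Pearson r of log2 CPM for each pair of the 31 genes (both axes, grouped by role) over 12 libraries after removal of diet and batch means; the colour scale runs from -1 (blue) to 1 (red). The fibrillar collagens form a block with a median r of 0.97, and the Vcan and Col14a1 rows are pale or blue.

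Col1a1 was taken as a single scale of interstitial collagen, and 38 relations with it were tested over the 12 libraries, 30 with members and 8 with other kidney genes, by two-sided permutation with 100000 resamples and Benjamini-Hochberg adjustment over the 38. With 24 of the 30 members r was positive at an adjusted permutation p under 0.05, and by Spearman's rho with 23. The lowest r among those 24 was 0.64, and 9.57% of the 17889 other genes tested had an r with Col1a1 at or above it, while 12.3% had a negative r of that size or larger. The median r was 0.78 over members, 0.78 within batch 1 and 0.88 within batch 2. It was 0.74 without control 4 and fisetin 6, the libraries farthest from the median of Col1a1. The values of Col1a1 had their widest gap between 514.8 and 604.4 CPM, with 6 libraries on either side. Col3a1 had r = 0.95 (permutation p = 2e-05, adjusted 0.00019) and rho = 0.92 (permutation p = 8e-05, adjusted 0.0010), and r was 0.95 in batch 1, 0.94 in batch 2 and 0.92 without those 2 libraries. The 6 members that did not pass were Col14a1 at r = -0.067, Vcan at -0.049, Acta2 at 0.41, Dcn at 0.46, Lum at 0.52 and Thbs2 at 0.55 (adjusted permutation p = 0.861, 0.879, 0.193, 0.148, 0.101 and 0.080). These r values include differences by diet and batch. With diet and batch means removed, r with Col1a1 was 0.81 for Thbs2, beside a median of 0.85 over members. For Col14a1, Vcan, Acta2, Dcn and Lum it was then -0.19, -0.089, 0.41, 0.42 and 0.47. Which members passed also depended on the scaling, with 27 passing on log2(TPM + 1). On that scale r with Col1a1 was 0.38 for Col14a1, 0.12 for Vcan and 0.60 for Acta2. For Dcn, Lum and Thbs2 it was 0.65, 0.58 and 0.70.

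Of the other genes, Tgfb1, the growth factor ligand, followed Col1a1 most closely (r = 0.89, permutation p = 0.0001, adjusted 0.00042; rho = 0.90, permutation p = 0.00013, adjusted 0.0012). Its r was 0.80 within batch 1, 0.94 within batch 2 and 0.80 without the 2 farthest libraries. Adgre1, the macrophage surface receptor F4/80, had r = 0.76 (permutation p = 0.0047, adjusted 0.0094) and rho = 0.76 (permutation p = 0.0058, adjusted 0.015), with 0.55 and 0.86 within batches and 0.57 without the 2 libraries. Slc34a1, the proximal tubule phosphate transporter, had r = -0.69 (permutation p = 0.015, adjusted 0.021) and rho = -0.71 (permutation p = 0.013, adjusted 0.021), with -0.37 and -0.84 within batches, -0.56 without the 2 libraries and -0.47 on the log2(TPM + 1) scale. TPM values depend on the structural RNAs 7SL and 7SK, which held 63.4% of all TPM in control 1, 57.5% in fisetin 6 and 49.7% to 54.3% in the other libraries. Havcr1, the tubular injury marker KIM-1, had r = 0.42 (adjusted permutation p = 0.188), and 0.056 without those libraries. The relation with Havcr1 had opposite signs in the batches (-0.29 and 0.68), whereas those with Tgfb1, Adgre1 and Slc34a1 kept their signs. Vcam1, an adhesion molecule of injured tubules and vessels, had r = 0.78 and rho = 0.66 (adjusted permutation p = 0.0059 and 0.031), with 0.30 and 0.97 within batches and 0.59 without the 2 libraries. Nphs1, the podocyte nephrin gene, had r = -0.70 and rho = -0.69 (adjusted permutation p = 0.017 and 0.025), with -0.18 and -0.90 within batches and -0.48 without the 2 libraries. For the endothelial gene Pecam1 r was -0.73 and rho -0.52 (adjusted permutation p = 0.0094 and 0.105), but on the log2(TPM + 1) scale r was 0.17, so its direction depended on the scaling. Ptprc, the leukocyte antigen CD45, had r = 0.47 (adjusted permutation p = 0.144).

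**Figure D5:**
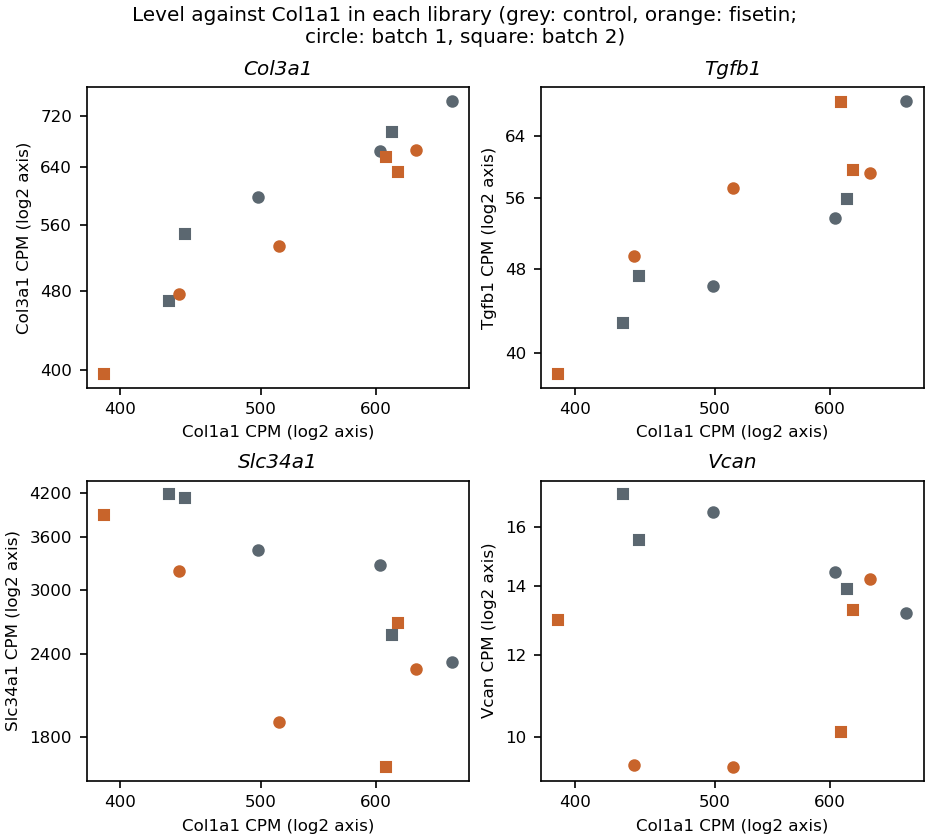
Level of Col3a1, Tgfb1, Slc34a1 and Vcan (y axes, CPM on log2 axes) against Col1a1 (x axes, CPM on log2 axes) in each of 12 libraries; grey is control, orange fisetin, circles batch 1 and squares batch 2. Col3a1 and Tgfb1 climb with Col1a1 (r = 0.95 and 0.89), Slc34a1 declines (r = -0.69), and Vcan shows no slope over both batches together (r = -0.049).

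Among 16479 other genes whose mean log2 CPM was 0 or more, those most like the mean of the members, with diet and batch means removed, were Stard9 (r = 0.98), Tmod3 (0.98), Kirrel (0.98), Pcdh7 (0.98), Cdh11 (0.98), Aebp1 (0.97), Hhipl1 (0.97), Spon1 (0.97), Gask1b (0.97) and Oas2 (0.97) over 12 libraries. Cdh11 is a cadherin of mesenchymal cells, Pcdh7 a protocadherin, Aebp1 a collagen-binding matrix protein and Spon1 a secreted matrix protein. Tmod3 caps actin filaments, Kirrel is an adhesion protein of the podocyte slit diaphragm, Stard9 is a kinesin of the mitotic spindle and Oas2 is an interferon-induced antiviral enzyme.

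Further genes of the same pathway gave no edgeR call by diet. Of 24 collagen processing genes tested, 8 had positive and 16 negative estimates, with 0 higher (8.23% of all genes) and 4 lower (6.34%) at an unadjusted edgeR p under 0.05. Loxl4, a further lysyl oxidase, was at -0.45 ± 0.089 (SE; edgeR adjusted p = 0.193, DESeq2 adjusted p = 0.012), and Pcolce, which speeds removal of the collagen propeptide, at -0.28 ± 0.082 (SE; edgeR adjusted p = 0.276). Of 34 further elastic fibre and matrix genes, 17 were positive and 17 negative. Of 28 profibrotic regulators 17 were positive and 11 negative, among them Tgfbr1, a receptor of transforming growth factor beta, at 0.23 ± 0.09 (SE; edgeR adjusted p = 0.304). Of 22 fibroblast and pericyte markers 14 were positive and 8 negative, with the pericyte channel subunit Abcc9 at -0.33 ± 0.076 (SE; edgeR adjusted p = 0.243, DESeq2 adjusted p = 0.022) and S100a4 at 0.41 ± 0.13 (SE; edgeR adjusted p = 0.281). Of 9 smooth muscle markers 1 was positive and 8 negative, with a median of -0.11, beside which Acta2 and Tagln were at -0.21 and -0.088.

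Batch and diet could be told apart, since each batch held 3 libraries of each diet. Between batches edgeR called 0 members and 0% of all genes, and 0 members had an unadjusted p under 0.05, beside 3.38% of all genes. Batch 2 was lower for 27 of 31 members and for 49.5% of all genes, with a median log2 difference of -0.11, beside 0.0014 over all genes. Since the members varied together, these 27 are not separate observations, and the count was not tested. The interaction of diet with batch was called for 0 members and 0% of genes, and 0 members had an unadjusted edgeR p under 0.05, beside 2.1% of all genes. The smallest such p among members was 0.085, for Col14a1. Estimates had the same sign in both batches for 19 of 31 members, and for 68.5% of the 17696 genes tested in both.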

How the data were processed

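Messenger RNA libraries from kidneys (KAPA mRNA HyperPrep kit, per the labels' protocols) were grouped by diet from the sample titles and by batch from the labels. Library numbers follow accession order and mark no pairs. The submitters' processing notes list DESeq2, STAR, fastp and featureCounts, and GRCm38 and mm10 as genome builds. Tool versions, annotation release and strand setting were not given in the sources used here. Per the file headers, each library has estimated counts, TPM and FPKM in the deposited table. Of the deposited estimated counts above 0, 13.9% were fractional (tolerance 1e-06), and all were rounded. The deposited TPM values are scaled by the authors to a fixed total, and the deposited FPKM values by the authors to transcript length and depth.

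Genes passing filterByExpr (minimum count 10) were scaled with TMM, fitted in edgeR 4.0.16 (R 4.3.3; glmQLFit, robust, terms for batch and diet) and tested two-sided with glmQLFTest, with Benjamini-Hochberg adjustment over 17890 genes and a threshold of 0.05. Alternatives were DESeq2 1.42.0, RLE and total count scaling, no count filter, no batch term, each batch alone, limma 3.58.1 on log2(TPM + 1), limma-voom with sample quality weights, and each library left out in turn. Log2 CPM used a prior count of 2. Coordinates are from GENCODE M21 (GRCm38), to which all 31 members matched, and promoter stretches from RefSeq (GRCm38.p6). The steps were tested on simulated counts.

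The members and gene lists were chosen with earlier results of these data known, so no list was tested as a set. Genes named with full values were Col1a1, Col1a2, Col3a1, Fn1, Postn, Acta2, Pdgfrb and Pdgfra, the members with the smallest p or the extreme spread, and the smallest p values of each further list. Other members are given by their estimates.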

Additional observations from a re-analysis of the deposited data

How the results depend on the processing

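No paired analysis was possible because the replicate numbers were given in accession order and pair no samples. The count of genes past adjusted p was 0 in edgeR, 153 with DESeq2, 2492 with limma-voom quality weights, 1 in batch 1 alone and from 0 to 70 with single libraries left out (1 without fisetin 4, 70 without fisetin 6). Members called higher numbered 2 with limma-voom quality weights and 0 under every other setting run, and members called lower 0 under all of them. Those weights were lowest for fisetin 6 (0.36), fisetin 5 (0.41) and control 1 (0.58) and highest for fisetin 2 (2.97). The cause of the difference was not tested. Members with an unadjusted p under 0.05 were 3, 9 with limma-voom quality weights (34.8% of all genes) and 2 to 5 with single libraries left out (5 without fisetin 3), where 9.05% to 25.7% of all genes had one. Members with a positive estimate were 14, 24 in batch 2 alone, 22 on log2(TPM + 1), 25 with limma-voom quality weights, and 11 to 22 with single libraries left out (22 without control 1). The share of all genes that was positive was computed only for the main fit (50.2%) and total count scaling (61.1%). In the other settings a shift of the members cannot be told from a shift of all genes by these counts. Total count scaling and log2(TPM + 1) moved the median of all genes to 0.045 and 0.055. The median pair correlation was 0.86 on log2(TPM + 1), a scale on which 7SL and 7SK held 49.7% to 63.4% of each total. Members whose correlation with Col1a1 passed adjusted p fell from 24 to 6 within batch 1 and 7 within batch 2, each with 6 libraries. On log2(TPM + 1) they numbered 27. Of 228 genes tested in the further lists, DESeq2 called 3 (0.855% of all genes) and limma-voom quality weights 48 (13.9% of all genes).

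Single members near 0 changed sign, and none of these values passed. Col1a1 was at 0.028 with total counts, 0.13 in batch 2, 0.051 on log2(TPM + 1), 0.13 with quality weights and -0.087 to 0.051 with single libraries left out. Pdgfrb was at 0.037, 0.041, 0.070, 0.064 and -0.041 to 0.042 in the same order, and Loxl1 at 0.0031, 0.058, 0.040, 0.0093 and -0.060 to 0.0088. Lum was at 0.12 in batch 2, 0.015 on log2(TPM + 1), 0.099 with quality weights and -0.19 to 0.038 with single libraries left out. In batch 1 alone Col1a2 was at -0.076 and Col14a1 at -0.13, and with single libraries left out they ran from -0.0075 to 0.12 and from -0.041 to 0.065. Postn ran from -0.0053 to 0.29. Thbs2 was at 0.60 and Col12a1 at 0.72 with quality weights. Without fisetin 6 the edgeR adjusted p of Thbs2 was 0.082 and that of Vcan 0.10, each the lowest over the libraries left out. The members' median log2 fold change ran from -0.076 in batch 1 alone to 0.099 with quality weights, and the median over all genes was not computed for those fits. The other counts stayed within 1.5 times their value or at 0, and the other 9 genes recomputed under every setting kept their direction. With 6 libraries a group and a median standard error of 0.12, small differences were not detectable.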

Other observations

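Ratios between other related members, also chosen after values had been seen, were computed on the FPKM scale and not tested. The ratio of Col6a1 to Col6a2, partner chains of type VI collagen, was 1.11 to 1.28 in control libraries (median 1.18) and 1.18 to 1.37 in fisetin libraries (median 1.29). The ratio of Dcn to Bgn, the 2 class I small leucine-rich proteoglycans of the set, was 0.172 to 0.271 in control libraries and 0.180 to 0.264 in fisetin libraries, so the ranges overlapped almost wholly. In the ratio of Col6a1 to Col6a2, 3 fisetin libraries lay above the highest control library and the ranges also overlapped. How many other pairs of genes show this was not computed.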
